A study of Mus musculus with 12 samples.

Results

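Transcript levels in E0771 cells that had been exposed to the activated cyclophosphamide derivative 4HC were set directly against those in E0771 cells stimulated briefly with interferon-β (IFNβ). Genes were included when the authors' mean reached 0.5 FPKM (the fragments counted for a gene, corrected for transcript length and for the mapped fragments of the library) in either group. This gave 11010 of the 24197 genes in the table. Of these, 10434 reached the minimum in both groups, 496 with 4HC alone and 80 with IFNβ alone. Just inside the minimum were Ifitm10, at 0.501 FPKM with 4HC against 0.398 FPKM with IFNβ, and Hipk4, at 0.261 FPKM with 4HC against 0.5003 FPKM with IFNβ. Just outside were Matn4, at 0.4996 FPKM with 4HC against 0.419 FPKM with IFNβ, and Lect2, at 0.343 FPKM with 4HC against 0.499 FPKM with IFNβ.

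E0771 is a mouse mammary tumor line, and 3 libraries were sequenced for each of 4 conditions. In the 4HC group, cells received 4.2 uM 4HC for 4 h, were washed and were collected 68 h later, at 72 h. In the 4HC plus anti-IFNAR1 group, 10 µg/mL of a monoclonal antibody against the type I interferon receptor chain IFNAR1 was present during and after the same 4HC exposure. In the IFNβ group, cells received 27.8 U/mL of recombinant mouse IFNβ for 4 h and, by the sample labels, were collected 2 h later. The control group, which the authors name untreated, was collected at 72 h. One protocol text in the labels gives 68 h for the IFNβ harvest instead. No group received a control antibody. 4HC and IFNβ cultures differ in agent and in time since exposure. By the study's methods they also differ in cells seeded per well and in time in culture. The influence of these factors on a difference between 4HC and IFNβ cultures cannot be told apart.

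4HC breaks down in solution to the alkylating species that cyclophosphamide yields after activation in the liver, and it crosslinks DNA. IFNβ binds the type I interferon receptor, whose kinases activate the transcription factor complex ISGF3. ISGF3 binds interferon-stimulated response elements (ISREs) and switches on interferon-stimulated genes (ISGs), many of which encode antiviral proteins. NF-κB is a separate transcription factor family, set free from IκB inhibitors by inflammatory or stress signals, that drives chemokine, adhesion and acute-phase genes.

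The table gives the authors' group means and no values per library. Differences are therefore given without spread or test, as log2((4HC + 0.1)/(IFNβ + 0.1)), where 1 is a 2-fold difference and the 0.1 FPKM added to each mean shrinks differences of low genes. Depth per library is unknown from the table. In these bulk samples, fewer cells expressing a gene and less RNA per cell cannot be told apart.

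Among the gene lists, chemokines had the highest median difference and interferon-induced GTPases the lowest. In all, 442 of the 11010 genes (4.01%) were at least 2-fold higher with 4HC than with IFNβ, and 74 (0.672%) were at least 2-fold lower. The list counts that follow are to be read beside these shares. The median log2 difference was 0.02, the middle 50% of genes lay between -0.21 and 0.28, and 86.2% of genes differed by less than 1.5-fold. Extremes were 4.95 (Saa3) on the 4HC side and -4.10 (Scarna9, a small nuclear RNA gene listed at 0 with 4HC) on the IFNβ side. The total FPKM was 197196 with 4HC and 214728 with IFNβ, and scaling both to the same total would add 0.12 to each difference.

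**Figure D1:**
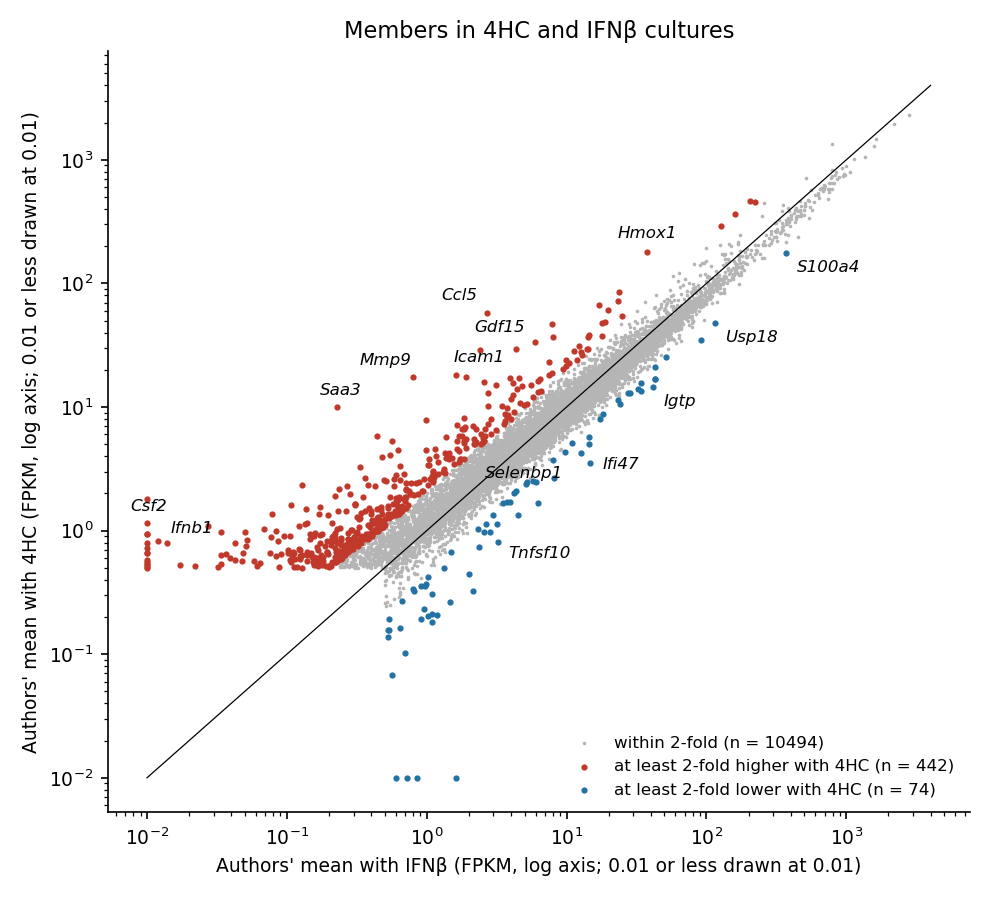
Authors' mean FPKM with 4HC (vertical, log axis) against IFNβ (horizontal, log axis) for the 11010 genes, 1 point per gene, with red for the 442 at least 2-fold higher and blue for the 74 at least 2-fold lower with 4HC; the line marks equal means. Saa3, Ccl5 and Mmp9 stand farthest above the line among genes averaging at least 5 FPKM over both groups, and Ifi47 (3.54 FPKM with 4HC, 14.7 FPKM with IFNβ) lies well below it.

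The size of the difference went with the level of expression. Among the 1112 genes that averaged under 1 FPKM over both groups, the median log2 difference was 0.45, 241 genes (21.7%) were at least 2-fold higher with 4HC and 27 (2.43%) were lower. A gene could pass the minimum through 1 group alone, as 496 did with 4HC and 80 with IFNβ. The median and shares at low levels therefore describe the genes that passed. The 3703 genes of 1 to 5 FPKM had a median of 0.13, and 131 (3.54%) were at least 2-fold higher. Among the 5550 genes of 5 to 50 FPKM the median was -0.07, with 64 genes (1.15%) higher and 22 (0.396%) lower. The 645 most abundant genes had a median of -0.22, with 6 genes higher and 3 lower. The authors list 6339 genes at 0 with 4HC, 6408 with 4HC plus antibody, 8516 with IFNβ and 8327 in control. The part that depth or RNA composition plays in this was not tested.

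**Figure D2:**
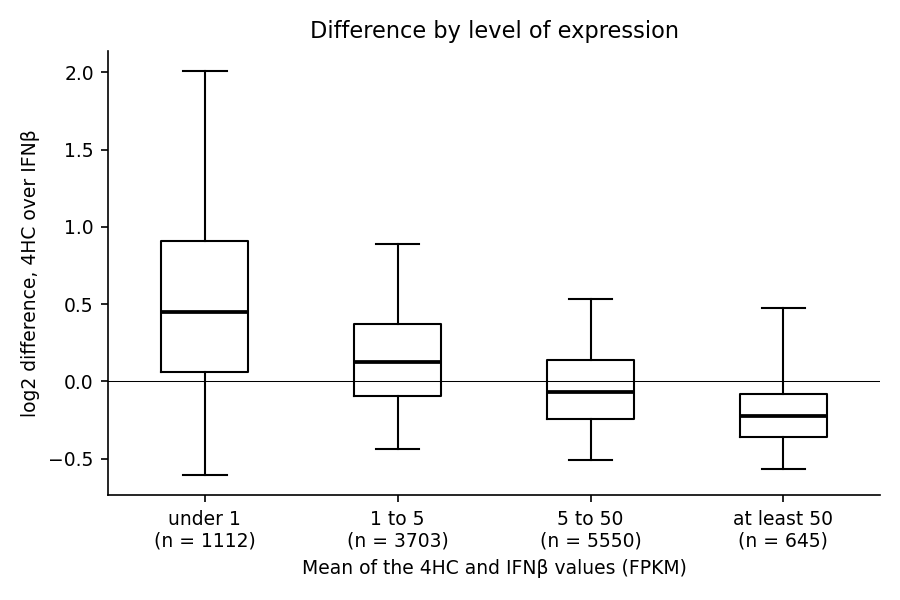
log2 difference of 4HC over IFNβ (vertical) for genes grouped by the mean of both values in FPKM (horizontal); boxes give quartiles, bars medians and whiskers the 5th to 95th percentiles of genes. Medians step down from 0.45 under 1 FPKM to -0.22 at 50 FPKM or more.

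Short RNA genes were frequent at both ends. The 397 microRNA and small nucleolar RNA genes included 65 of the 442 higher and 24 of the 74 lower genes, although such RNAs are poorly represented in polyadenylated libraries. Without them, 377 of 10613 genes were at least 2-fold higher and 50 were lower.

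Genes of the NF-κB system were mostly higher with 4HC. Of 24 NF-κB subunits, inhibitors and classical targets that reached the minimum, 14 were at least 2-fold higher with 4HC and none was 2-fold lower, against 4.01% and 0.672% of all genes, and the list's median was 1.38, against 0.02 over all genes. Relative to control, 13 of the 24 were at least 2-fold higher with 4HC and none with IFNβ. Over all 11010 genes, 5.17% were at least 2-fold higher and 0.363% lower with 4HC than in control, and 2.23% were higher and 0.318% lower with IFNβ than in control. Both comparisons draw on the same 4HC, IFNβ and control means.

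Saa3 (chr7:53967367-53971046, mm9), an acute-phase serum amyloid protein, had the largest difference of all 11010 genes. Its means were 9.99 FPKM with 4HC, 10.97 FPKM with 4HC plus anti-IFNAR1, 0.227 FPKM with IFNβ and 0.391 FPKM in control, a log2 difference of 4.95 between 4HC and IFNβ. C3, the central complement component, was far more abundant, at 46.7 FPKM with 4HC, 40.6 FPKM with the antibody added, 7.91 FPKM with IFNβ and 8.11 FPKM in control (2.55). For both genes the IFNβ mean lay near or under the control mean and the antibody left the 4HC mean close to its level without it.

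Icam1, an adhesion molecule that leukocyte integrins bind, had 17.6 FPKM with 4HC, 13.4 FPKM with 4HC plus anti-IFNAR1, 1.91 FPKM with IFNβ and 1.41 FPKM in control (log2 difference 3.14). The inhibitors that restrain NF-κB, themselves known targets of it, were high too. Nfkbie, encoding IκBε, had 5.35 FPKM with 4HC, 3.66 FPKM with antibody added, 0.569 FPKM with IFNβ and 0.583 FPKM in control (3.03). Nfkbia, encoding IκBα, had 47.5, 46.8, 18.0 and 16.2 FPKM in the same order of groups (1.40). The 1 listed gene with a negative difference was Sod2, the mitochondrial superoxide dismutase, with 9.08 FPKM with 4HC against 10.6 FPKM with IFNβ (-0.22).

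The 15 named genes with the highest difference were taken at 5 FPKM or more in the group where the gene was higher. Of these, 9 had a promoter in the RefSeq table (GRCm38.p6, 250 bases before to 50 after the start). The promoters of Saa3 and Icam1 held the NF-κB motif GGNNTTTCC on either strand. The stretches lie at chr7:46715769-46715887 on the minus strand for Saa3 and at chr9:21015763-21015888 on the plus strand for Icam1, and are printed 5′ to 3′ because they show the letters counted across all promoters further on. Capitals mark the NF-κB motif and, in Saa3 only, the ISRE core GAAANNGAA as the last capital run.
Saa3: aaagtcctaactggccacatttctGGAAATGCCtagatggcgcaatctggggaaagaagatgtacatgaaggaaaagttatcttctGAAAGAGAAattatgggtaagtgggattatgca
Icam1: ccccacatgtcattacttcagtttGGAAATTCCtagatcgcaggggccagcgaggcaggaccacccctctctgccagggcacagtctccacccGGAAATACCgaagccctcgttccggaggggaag

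Chemokines, the secreted attractants of leukocytes, had the highest median of all lists. Of 29 chemokine genes, 11 reached the minimum, 10 of these were at least 2-fold higher with 4HC, none was lower, and the median was 2.45. The 4HC mean lay at least 2-fold above control for 10 of the 11, and the IFNβ mean for 3. Since 18 chemokines stayed under 0.5 FPKM and a gene high only with 4HC could pass through that group, the count describes the genes that passed.

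Chemokines differed in how far IFNβ reached them. Ccl5 (chr11:83339280-83344020, mm9), an attractant of T cells, had 58.0 FPKM with 4HC, 54.3 FPKM with 4HC plus anti-IFNAR1, 2.71 FPKM with IFNβ and 3.04 FPKM in control (4.37), so its IFNβ mean was no higher than control. Ccl7, a monocyte attractant, had 36.6, 35.3, 7.95 and 2.26 FPKM in the same order (2.19), and Ccl2, another monocyte attractant, had 71.5, 63.6, 23.5 and 8.06 FPKM (1.60). For both monocyte attractants the IFNβ mean sat between those of 4HC and control. Ccl4, an attractant of macrophages and T cells, had 2.34 FPKM with 4HC against 0.128 FPKM with IFNβ (3.42).

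Of 39 genes for cytokines and growth factors, 22 reached the minimum, with a median of 0.79. Of the 22, 9 were at least 2-fold higher with 4HC and 1 was lower, against 4.01% and 0.672% of all genes. A gene high only with 4HC could pass through that group here too, so the count describes the genes that passed. Gdf15, a stress-induced hormone of the TGF-β family, had 29.5 FPKM with 4HC, 24.99 FPKM with 4HC plus anti-IFNAR1, 4.34 FPKM with IFNβ and 3.55 FPKM in control (2.74). Csf1, the macrophage growth factor, had 48.0, 34.0, 31.9 and 16.7 FPKM (0.59), a difference under 2-fold. The gene for IFNβ itself, Ifnb1, was listed at 0.820 FPKM with 4HC, 0.701 FPKM with antibody added, 0.0120 FPKM in cells given the recombinant protein and 0.00660 FPKM in control (3.04). Csf2, encoding GM-CSF, had 1.15 FPKM with 4HC against 0.00894 FPKM with IFNβ (3.51). For these low genes the size of the difference depends on the pseudocount, and with 0.01 FPKM added it was 5.24 for Ifnb1 and 5.93 for Csf2.

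The 1 lower cytokine was Tnfsf10, encoding the death ligand TRAIL and a known ISG. It had 0.813 FPKM with 4HC, 0.275 FPKM with 4HC plus anti-IFNAR1, 3.22 FPKM with IFNβ and 0.0910 FPKM in control (-1.86). Its mean was highest with IFNβ, and its mean with 4HC was lower when the receptor antibody was present.

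**Figure D3:**
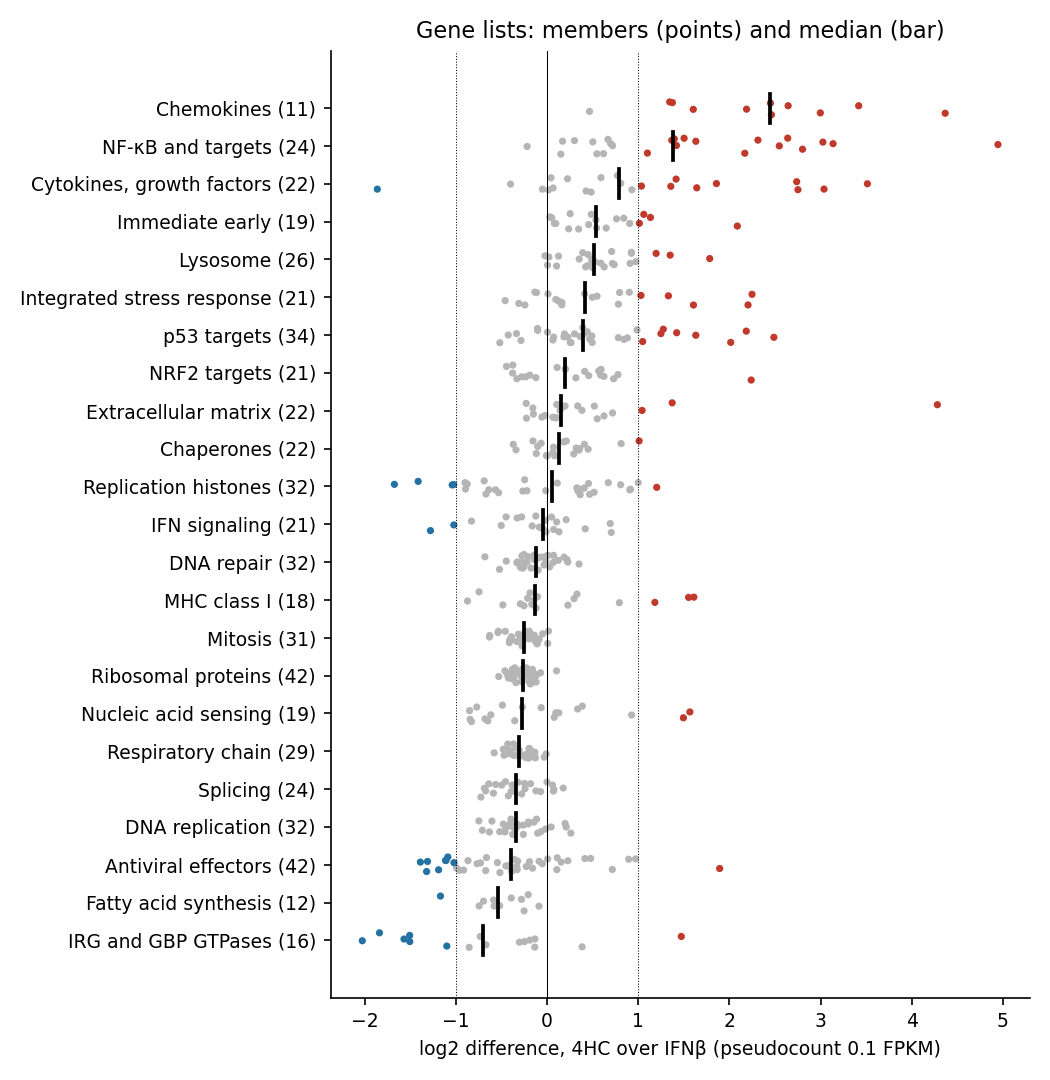
log2 difference of 4HC over IFNβ (horizontal) for the genes of the lists shown, 1 point per gene that reached 0.5 FPKM, number of such genes in parentheses; bars are list medians, dotted lines mark 2-fold. Chemokines (median 2.45) and NF-κB genes (1.38) lie to the right, and the IRG and GBP GTPases (-0.70) farthest to the left.

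Genes of the DNA damage and stress responses were higher with 4HC in part. Of 34 genes of the p53 list, 8 were at least 2-fold higher with 4HC and none was 2-fold lower, against 4.01% and 0.672% of all genes. The median was 0.40. Gadd45a, a stress sensor in growth arrest and repair, had 33.6 FPKM with 4HC, 34.1 FPKM with antibody added, 5.91 FPKM with IFNβ and 3.98 FPKM in control (2.49). Ddb2, which recognises damaged DNA, had 2.30 FPKM with 4HC against 0.429 FPKM with IFNβ (2.19). Of the 34, 28 had a positive difference and 6 a negative one. Bax, a pore-forming promoter of apoptosis, had 71.3 FPKM with 4HC against 71.1 FPKM with IFNβ, and Ei24 had 14.4 and 20.7 FPKM (-0.52). The 32 genes of crosslink and double-strand break repair included none past 2-fold, with a median of -0.12 that becomes 0.00 after scaling to the same total.

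The integrated stress response, in which the factor ATF4 is translated when protein synthesis is held back, was covered by a list of its own. Of 21 genes, 5 were at least 2-fold higher with 4HC and none was lower (median 0.41), against 4.01% and 0.672% of all genes. Ddit3, encoding the transcription factor CHOP, had 15.2 FPKM with 4HC, 16.9 FPKM with antibody added, 3.12 FPKM with IFNβ and 2.66 FPKM in control (2.25). Atf3, a stress-induced transcription factor, had 12.9, 12.4, 2.73 and 1.68 FPKM (2.20). The other 3, Ppp1r15a (1.61), Nupr1 (1.33) and Chac1 (1.03), were named after their values were seen. Psat1 of serine synthesis, among the lowest of the list, had 79.4 FPKM with 4HC against 109 FPKM with IFNβ (-0.46), and Atf4 itself had 140 and 131 FPKM (0.09).

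Of 21 NRF2 targets, 1 was at least 2-fold higher with 4HC and none was lower, which says little beside 4.01% of all genes. The 1 gene was Hmox1, the heme-degrading enzyme heme oxygenase 1. It had 178 FPKM with 4HC, 175 FPKM with 4HC plus anti-IFNAR1, 37.6 FPKM with IFNβ and 28.9 FPKM in control (2.24). The iron storage chain Fth1, also on that list, had 1346 FPKM with 4HC against 785 FPKM with IFNβ (0.78). Txn1, the antioxidant thioredoxin, went the other way with 121 FPKM with 4HC against 165 FPKM with IFNβ (-0.45).

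Immediate early and lysosomal genes were shifted as groups by less than 2-fold. All 19 immediate early genes that reached the minimum had a positive difference (median 0.54), and 4 were at least 2-fold higher, against 4.01% of all genes. The 4 were Dusp1 (2.09), Junb (1.13) and, named after their values were seen, Dusp4 (1.06) and Zfp36 (1.01). Dusp1, a phosphatase that switches off MAP kinases, had 17.1 FPKM with 4HC against 3.96 FPKM with IFNβ. Of 26 lysosomal genes, 25 had a positive difference (median 0.51) and 3 were at least 2-fold higher, beside 4.01% of all genes. After scaling both groups to the same total, 7 were, beside 5.17% of all genes. The 3 were Cd68, a lysosomal membrane protein, with 3.80 FPKM with 4HC against 1.03 FPKM with IFNβ (1.78), the glycoprotein Gpnmb with 36.5 and 14.3 FPKM (1.35), and the autophagy receptor Sqstm1 with 291 and 127 FPKM (1.20). The summed level of the lysosomal list was 1722 FPKM with 4HC, 1691 FPKM with antibody added, 1056 FPKM with IFNβ and 1037 FPKM in control.

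Single genes outside these groups stood high as well. Mmp9, a gelatin-degrading matrix protease, had 17.4 FPKM with 4HC, 14.8 FPKM with 4HC plus anti-IFNAR1, 0.802 FPKM with IFNβ and 0.941 FPKM in control (4.28). Krt16, a keratin of stressed epithelium, had 28.7, 27.5, 2.39 and 1.58 FPKM (3.53). Cd74, the chaperone of MHC class II, had 5.85, 5.92, 0.440 and 0.348 FPKM (3.46), while the class II accessory genes H2-DMa (4.82 FPKM with 4HC, 3.20 FPKM with IFNβ) and H2-DMb1 (5.28 and 3.05 FPKM) differed by less than 2-fold. Ndrg4 had 15.9 FPKM with 4HC against 2.55 FPKM with IFNβ (2.60).

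**Figure D4:**
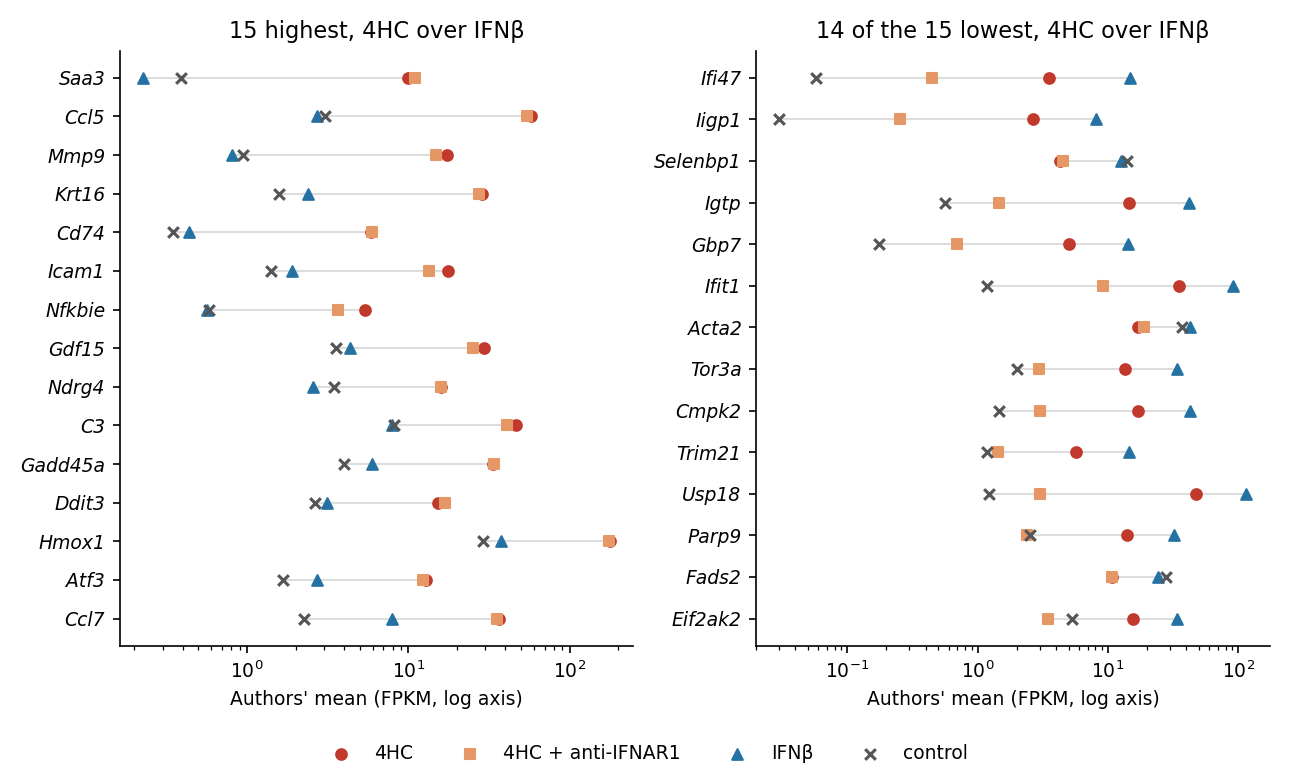
Authors' mean FPKM (horizontal, log axis) with 4HC, 4HC plus anti-IFNAR1, IFNβ and in control. The left panel holds the 15 named genes with the highest log2 difference of 4HC over IFNβ at 5 FPKM or more with 4HC. The right panel holds 14 of the 15 with the lowest difference at 5 FPKM or more with IFNβ. On the left the IFNβ and control symbols lie below both 4HC symbols, as for Ccl5 (2.71 and 3.04 FPKM), while on the right the 4HC symbol mostly lies between those of IFNβ and control, as for Usp18, whose means were 47.4 (4HC), 115 (IFNβ) and 1.23 (control).

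Interferon-inducible GTPases had the lowest median of the lists. Of 16 immunity-related GTPases (IRGs) and guanylate-binding proteins (GBPs), enzymes that attack the vacuoles of intracellular pathogens, 6 were at least 2-fold lower with 4HC and 1 was higher, with a median of -0.70. All 16 lay at least 2-fold above control both with 4HC and with IFNβ. With anti-IFNAR1 added to 4HC, 15 of the 16 were at least 2-fold under their IFNβ mean, against 2.13% of all genes.

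Ifi47 (an IRG on chromosome 11 in mm9) had the lowest difference among the named genes averaging at least 5 FPKM over both groups. It had 3.54 FPKM with 4HC, 0.450 FPKM with 4HC plus anti-IFNAR1, 14.7 FPKM with IFNβ and 0.0574 FPKM in control, a log2 difference of -2.03. Igtp (chr11:58013057-58021094, mm9), another IRG, was more abundant at 14.5, 1.45, 41.5 and 0.558 FPKM in the same order (-1.51). The means of both genes ran, high to low, in the order IFNβ, 4HC, 4HC plus antibody, control. Iigp1 had 2.65 FPKM with 4HC against 8.06 FPKM with IFNβ (-1.57), Gbp7 had 4.99 and 14.4 FPKM (-1.51), and Irgm1, an IRG that regulates the others, had 29.4 and 53.3 FPKM (-0.86). The 1 higher gene, Gbp10, was low, at 0.567 FPKM with 4HC against 0.140 FPKM with IFNβ (1.47). GBP and IRG genes are close copies of each other, so reads shared between copies make single members uncertain.

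Antiviral effectors were mostly within 2-fold of their IFNβ level, with a tail of lower genes. Of 42 genes, 8 were at least 2-fold lower with 4HC, 1 was higher, 33 were within 2-fold and the median was -0.40. After scaling both groups to the same total, 4 were lower and 3 higher. Relative to control, 38 lay at least 2-fold higher with 4HC and 40 with IFNβ, with list medians of 3.30 and 3.56. With anti-IFNAR1 added to 4HC, 40 of the 42 were at least 2-fold under IFNβ, against 2.13% of all genes, with a median of -3.04.

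The lower members named here have different known functions. Ifit1, which binds viral RNA lacking the host's cap methylation, had 34.9 FPKM with 4HC, 9.13 FPKM with 4HC plus anti-IFNAR1, 91.7 FPKM with IFNβ and 1.18 FPKM in control (-1.39). Eif2ak2, encoding the RNA-activated kinase PKR, had 15.6, 3.48, 34.0 and 5.26 FPKM (-1.11). Cmpk2, a mitochondrial nucleotide kinase, had 16.9, 2.99, 42.5 and 1.47 FPKM (-1.32). In each the 4HC mean lay between those of IFNβ and control. Trim21, an antibody receptor inside cells, had 5.73 FPKM with 4HC against 14.4 FPKM with IFNβ (-1.31), and Parp9 had 14.0 and 32.2 FPKM (-1.19). Eif2ak2 and Parp9 with antibody added (3.48 and 2.38 FPKM) lay below their control means of 5.26 and 2.52 FPKM.

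Of the 42, 31 had a negative difference and 11 a positive one. Ifitm3, which blocks virus entry at endosomes, had 308 FPKM with 4HC against 307 FPKM with IFNβ (0.00). Bst2, the tetherin that holds budding virions, had 349 and 251 FPKM (0.48). Slfn2, a Schlafen family gene, had 11.7 FPKM with 4HC, 1.38 FPKM with antibody added, 5.93 FPKM with IFNβ and 0.147 FPKM in control (0.97). Ifi27l2a was the 1 member past 2-fold on the 4HC side, at 17.1, 0.424, 4.54 and 1.27 FPKM (1.89), and its mean with the antibody was under control.

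The ISGs that the study had followed by qPCR were spread over both directions. Cxcl10, a T cell attractant, had 28.6 FPKM with 4HC, 18.5 FPKM with 4HC plus anti-IFNAR1, 11.2 FPKM with IFNβ and 1.04 FPKM in control (1.34). Oasl1, a 2′-5′ oligoadenylate synthetase-like protein, had 12.04, 3.64, 13.8 and 0.667 FPKM (-0.19), Rsad2, encoding viperin, had 35.4, 12.7, 47.1 and 1.04 FPKM (-0.41), and Mx1, an antiviral GTPase, had 9.48, 1.18, 13.6 and 0.299 FPKM (-0.52). Cxcl11 stayed under the minimum with 0.362 FPKM with 4HC against 0.00576 FPKM with IFNβ. With the antibody added, Cxcl10 lay above its IFNβ mean while Oasl1, Rsad2, Mx1 and Igtp lay below theirs.

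Of the 15 lowest named genes, 10 had a promoter in RefSeq (GRCm38.p6), and 5 of these held the ISRE core. Those of Ifi47, Selenbp1, Acta2, Cmpk2 and Fads2 did not. Among the qPCR genes, 4 had a promoter and 3 held the core, Oasl1 being the exception. Stretches of 4 genes on the IFNβ side, and of Cxcl10 and Rsad2 as genes with both motifs, are printed 5′ to 3′ because they carry the core. Capitals mark GAAANNGAA or its reverse complement and, in Cxcl10 and Rsad2, also the NF-κB motif as the last capital run. They lie at chr11:58199498-58199554 for Igtp, chr3:142530260-142530316 for Gbp7 and chr19:34640756-34640837 for Ifit1, all on the plus strand. On the minus strand they lie at chr7:102565433-102565493 for Trim21, chr5:92349015-92349126 for Cxcl10 and chr12:26456495-26456595 for Rsad2.
Igtp: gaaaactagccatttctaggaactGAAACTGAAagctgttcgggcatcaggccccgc
Gbp7: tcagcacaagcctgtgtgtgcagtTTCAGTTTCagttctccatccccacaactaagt
Ifit1: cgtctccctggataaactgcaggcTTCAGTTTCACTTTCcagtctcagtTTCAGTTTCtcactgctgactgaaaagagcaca
Trim21: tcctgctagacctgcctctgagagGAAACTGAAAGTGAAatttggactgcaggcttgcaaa
Cxcl10: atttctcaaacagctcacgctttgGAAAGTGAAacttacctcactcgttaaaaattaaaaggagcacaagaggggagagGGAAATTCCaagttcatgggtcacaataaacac
Rsad2: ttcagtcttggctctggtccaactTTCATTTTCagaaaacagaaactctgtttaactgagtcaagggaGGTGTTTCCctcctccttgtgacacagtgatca

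A promoter was found for 8119 of the 11010 genes, and motifs were searched on both strands of every promoter listed for a gene. The ISRE core was present for 11 of 30 lower genes (36.7%), 26 of 254 higher genes (10.2%) and 8.61% of all 8119, against 9.76% of all 27025 genes in the promoter table. All 11 were among the 17 lower genes whose IFNβ mean lay at least 2-fold above control. The NF-κB motif was present for 1 of 30 lower genes (3.33%), 42 of 254 higher genes (16.5%) and 7.46% of all 8119, against 6.62% of the promoter table. The AP-1 motif TGAGTCA was present for 3.33% of lower, 13.0% of higher and 4.63% of all genes (5.95% of the promoter table), and the ATF4-CEBP motif TGATGCAA for 0 of 30 lower, 2.36% of higher and 0.714% of all genes (1.03% of the promoter table). The antioxidant response element TGACNNNGC was at 16.9% in higher and 17.2% in all genes, with 10.0% in lower genes and 14.0% in the promoter table. These matches describe letters in the windows and do not show binding.

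**Figure D5:**
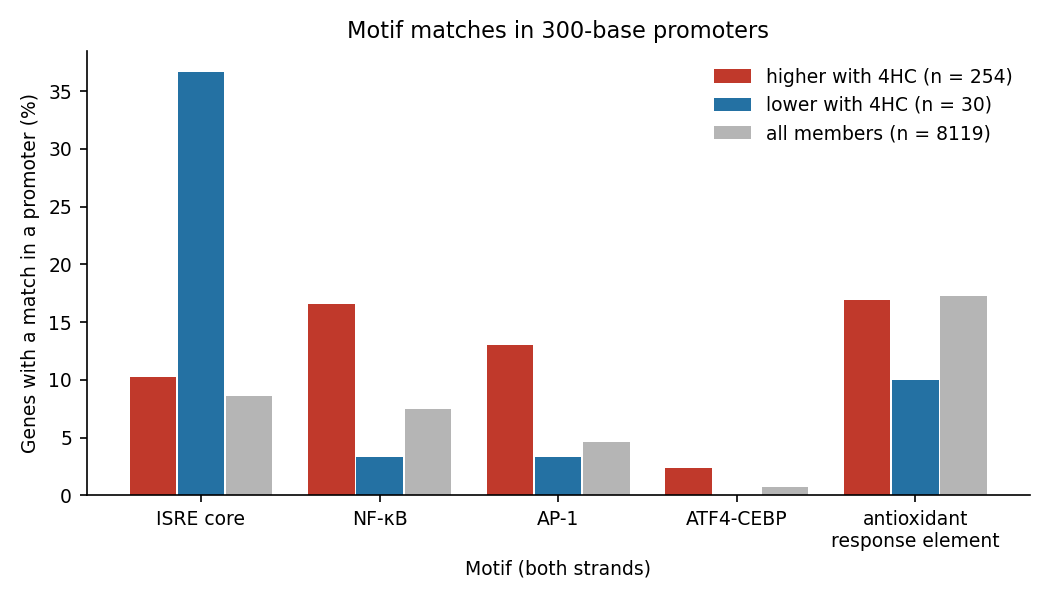
Percent of genes with a motif match in a 300-base promoter (vertical) for 5 motifs (horizontal), for 254 genes at least 2-fold higher with 4HC, 30 at least 2-fold lower and all 8119 genes with a promoter. The ISRE core is found in 36.7% of lower genes, and the NF-κB motif in 16.5% of higher genes.

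Of 21 receptors, kinases, transcription factors and feedback genes of the interferon pathway, none was at least 2-fold higher with 4HC and 2 were lower, with a median of -0.05 that becomes 0.08 after scaling to the same total. Usp18 (chr6:121195923-121220935, mm9), which removes ISG15 from proteins and damps the receptor, had 47.4 FPKM with 4HC, 3.03 FPKM with 4HC plus anti-IFNAR1, 115 FPKM with IFNβ and 1.23 FPKM in control (-1.28). Irf5, a transcription factor, had 2.10, 0.644, 4.37 and 0.277 FPKM (-1.02). Irf7, the factor that amplifies interferon production, had 30.9, 1.48, 43.8 and 1.21 FPKM (-0.50), and its mean with the antibody lay near control.

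The list of nucleic acid sensing and related genes lay on both sides of zero. Of 19 genes, 2 were at least 2-fold higher with 4HC, and neither of them is itself a sensor of nucleic acids. Tlr2, a receptor of bacterial lipoproteins, had 1.51 FPKM with 4HC against 0.443 FPKM with IFNβ (1.57), and the kinase Ikbke had 3.57 and 1.20 FPKM. The median was -0.27. The RNA sensor RIG-I, encoded by Ddx58, had 19.4 FPKM with 4HC, 3.05 FPKM with antibody added, 33.3 FPKM with IFNβ and 3.82 FPKM in control (-0.77), and its relative Dhx58 had 13.1, 1.31, 23.6 and 1.27 FPKM (-0.85). Both RNA sensors had means with the antibody close to control.

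Of 18 genes of antigen presentation by MHC class I, the class I chains H2-K1 (1.61), H2-Q4 (1.55) and H2-D1 (1.18) were at least 2-fold higher with 4HC and none of the 18 was 2-fold lower, with a median of -0.13. H2-K1 had 60.7 FPKM with 4HC, 25.5 FPKM with 4HC plus anti-IFNAR1, 19.8 FPKM with IFNβ and 9.89 FPKM in control, and H2-D1 had 363, 199, 160 and 98.4 FPKM. B2m, the light chain, had 446, 257, 257 and 117 FPKM (0.79). The list's lowest members were Tap1 and Psmb10. Tap1, a subunit of the peptide transporter, had 20.3, 4.38, 37.3 and 3.96 FPKM (-0.87), and Psmb10, an immunoproteasome subunit, had 19.3, 11.2, 32.4 and 6.52 FPKM (-0.75). The H2 chains are near-identical copies and their single values are uncertain.

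Of 12 immune ligands on the cell surface, 1 was at least 2-fold higher with 4HC and none was lower, which says little beside 4.01% of all genes. Cd274, encoding the checkpoint ligand PD-L1, had 1.94 FPKM with 4HC against 2.57 FPKM with IFNβ (-0.39), and Cd47, a signal against phagocytosis, had 18.1 and 18.2 FPKM (-0.01). Pvr, a ligand of NK and T cell receptors, had 21.3 and 9.82 FPKM (1.11). Lgals9, a galectin that binds T cell receptors such as TIM-3, had 49.5 FPKM with 4HC against 80.8 FPKM with IFNβ (-0.71). Of 19 cell death genes, 1 was at least 2-fold higher, which again says little beside 4.01% of all genes. This was the inflammatory caspase Casp4, with 5.54 FPKM with 4HC against 2.19 FPKM with IFNβ (1.30). Mlkl, the executor of necroptosis, had 27.1 and 43.2 FPKM (-0.67).

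A separate set of 22 lower genes had a 4HC mean at least 2-fold below control and an IFNβ mean within 2-fold of control. With the antibody added to 4HC, 11 of the 22 lay at least 2-fold below their IFNβ mean and 11 within 2-fold of it. Selenbp1, a selenium-binding protein, had 4.28 FPKM with 4HC, 4.48 FPKM with 4HC plus anti-IFNAR1, 12.6 FPKM with IFNβ and 13.9 FPKM in control (-1.54). Acta2, smooth muscle actin, had 16.9, 18.8, 42.8 and 36.9 FPKM (-1.34), and Myl9, a myosin light chain of contractile cells, had 1.33, 1.95, 4.46 and 4.30 FPKM (-1.67). For these 3 genes the antibody group stayed with 4HC. Fads2, a fatty acid desaturase, had 10.7 FPKM with 4HC against 24.1 FPKM with IFNβ (-1.17). All 12 genes of fatty acid synthesis had a negative difference (median -0.54) with 1 past 2-fold.

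Proliferation and housekeeping lists held almost no gene past 2-fold. None of 31 mitosis genes (median -0.26), 32 replication genes (-0.34), 29 ribosome biogenesis factors (-0.22), 24 splicing factors (-0.34), 42 ribosomal proteins (-0.27) or 29 respiratory chain subunits (-0.31) reached 2-fold in either direction. Mki67, a marker of cycling cells, had 5.93 FPKM with 4HC, 6.24 FPKM with antibody added, 9.25 FPKM with IFNβ and 10.3 FPKM in control (-0.63). Tyms, the thymidylate synthase, had 3.49, 4.45, 5.94 and 5.58 FPKM (-0.75). For comparison, the median was -0.07 over all genes of 5 to 50 FPKM and -0.22 over those of at least 50 FPKM. After scaling to the same total these list medians ranged from -0.10 for ribosome biogenesis to -0.22 for replication. Glycolytic Tpi1 had 239 FPKM with 4HC against 450 FPKM with IFNβ (-0.92) and Ldha had 336 and 545 FPKM (-0.70).

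Replication-dependent histone genes, whose transcripts mostly lack a poly(A) tail, reached the minimum in 32 of 68 cases. Of these, Hist1h2bc was at least 2-fold higher with 4HC (10.8 FPKM against 4.62 FPKM with IFNβ, 1.20). The lower ones were Hist1h3h (-1.68), Hist1h3c (-1.42) and, named after their values were seen, Hist1h2bg (-1.04) and Hist1h2ak (-1.03). After scaling both groups to the same total, 4 were higher and 2 lower, and with a pseudocount of 1 FPKM 1 was higher and 0 lower. Reads shared between histone copies make these values uncertain.

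The place of each group relative to control differed between the higher and the lower genes. Of the 442 higher genes, 310 had a 4HC mean at least 2-fold above control and 132 one within 2-fold of control, while the IFNβ mean was within 2-fold of control for 400, at least 2-fold below for 28 and at least 2-fold above for 14. Of the 74 lower genes, the 4HC mean was at least 2-fold above control for 25, within 2-fold for 25 and at least 2-fold below for 24, and the IFNβ mean was at least 2-fold above control for 38 and within 2-fold for 36. The same means enter both sides of this description. With the antibody added to 4HC, 339 of the 442 were still at least 2-fold above their IFNβ mean, and 45 of the 74 were at least 2-fold below it. Across all 11010 genes, 441 (4.01%) were at least 2-fold higher and 235 (2.13%) at least 2-fold lower with 4HC plus antibody than with IFNβ.

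Cell type markers were checked in every group. Of 19 leukocyte markers, 2 reached 0.5 FPKM with 4HC or IFNβ, 12 were under 0.1 FPKM in every group, and the summed level was 4.06 FPKM with 4HC, 5.60 FPKM with antibody added, 2.49 FPKM with IFNβ and 2.09 FPKM in control. The pan-leukocyte gene Ptprc, chosen after its values were seen, was listed at 0.00651 FPKM or lower with 4HC and with IFNβ. Of 12 epithelial markers, 3 reached the minimum and 8 were under 0.1 FPKM in every group. Krt8, a simple-epithelium keratin, had 46.5 FPKM with 4HC against 75.3 FPKM with IFNβ (-0.69), and Erbb2 had 3.41 and 3.87 FPKM (-0.18). Krt14, a keratin close to the minimum, went the other way, at 0.509 FPKM with 4HC against 0.112 FPKM with IFNβ (1.52). The adhesion genes Epcam and Cdh1, chosen after their values were seen, were under 0.1 FPKM in both groups. Of the mesenchymal markers, 6 reached the minimum, 4 with a positive and 2 with a negative difference (median 0.15). The 2 negative ones were Vim, with 752 FPKM with 4HC against 835 FPKM with IFNβ (-0.15), and S100a4, with 175 and 371 FPKM (-1.08). Zeb1 had 7.42 and 5.34 FPKM (0.47), and Zeb2 had 5.04 and 4.25 FPKM (0.24). Of 7 endothelial markers, 1 reached the minimum. Of 7 fibroblast markers, 2 did, namely the growth factor receptors Pdgfra, with 10.9 FPKM with 4HC against 5.94 FPKM with IFNβ (0.86), and Pdgfrb, with 6.57 and 5.00 FPKM (0.39).

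Control genes leaned toward IFNβ. Of 13, 11 had a negative difference, none passed 2-fold and the median was -0.25, or -0.13 after scaling to the same total. Gapdh had 1284 FPKM with 4HC against 1578 FPKM with IFNβ (-0.30), and Actb had 648 and 804 FPKM (-0.31). The nuclear RNAs Malat1 (70.4 FPKM with 4HC against 36.6 FPKM with IFNβ, 0.94) and Neat1 (60.1 and 31.7 FPKM, 0.92) were higher with 4HC, and whether RNA preparation has a part in the differences was not tested.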

How the data were processed

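The deposited table lists the authors' mean FPKM of each group over 3 libraries for 24197 genes. The authors aligned reads with TopHat2 (mm9), counted them with featureCounts and used edgeR for their own comparisons. Tool versions are not given in the sources used here. Libraries were polyadenylated and directional. Columns of the authors' own 4 comparisons (ratios, fold changes and P values) were not used. No comparison of 4HC with IFNβ is among them, and no values per library were used, so no test was planned or made. Genes of at least 0.5 FPKM in either group entered, and differences used a pseudocount of 0.1 FPKM and a 2-fold threshold. The calculation was tested by putting known fold changes, without noise, into means of at least 5 FPKM. This checks the arithmetic only, not calls on noisy or low values. Symbols were matched to Ensembl (23015) or RefSeq (236), with 946 matched to neither and 27 turned into dates.

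Members and the 42 gene lists were chosen with earlier results of these data known. Named genes were the 15 highest and 15 lowest differences at 5 FPKM or more (predicted, microRNA and snoRNA symbols passed over), the 2 most abundant, 2 highest and 2 lowest of each list, the qPCR and control genes, and genes at the minimum. Some of these are not reported here. Alternatives were other pseudocounts, minimums, folds and scalings. Python 3.11.15, pandas 2.3.3 and numpy 2.4.6 were used.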

Additional observations from a re-analysis of the deposited data

How the results depend on the processing

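Counts of genes depended on the fold threshold and on how low values were treated. With a pseudocount of 1 FPKM, 120 genes (1.09%) were at least 2-fold higher and 26 (0.236%) lower with 4HC. Without a minimum 3.30% of 24197 genes were higher, with a minimum of 1 FPKM 274 (2.71%), and with a minimum of 5 FPKM 101 (1.55%) were higher and 30 (0.460%) lower. At 1.5-fold 1171 genes (10.6%) were higher and 352 (3.20%) lower, and at 4-fold 95 (0.863%) were higher and 9 (0.0817%) lower. Scaling both groups to the same total, with the pseudocount kept, moved the median difference to 0.14 and gave 569 higher and 52 lower genes. The share of higher genes among those past 2-fold stayed between 77.1% and 91.6% in the settings that kept this threshold, against 85.7% as reported. With a pseudocount of 1 FPKM, 4 of 22 cytokine genes, 5 of 34 p53 targets and 1 of 19 genes of the sensing list were still at least 2-fold higher. Leaving out short RNA genes, which gave 377 higher and 50 lower genes, was chosen after seeing the data. Of the 218 named genes tested, 13 were no longer past 2-fold with a pseudocount of 1 FPKM. None past 2-fold changed sign under another pseudocount or scaling, but these settings could not have changed it. A pseudocount added to both means keeps the sign, and the scalings shift differences by about 0.12 or 0.08. On the given strand alone, 16.7% of lower genes held the ISRE core, 8.66% of higher genes the NF-κB motif and 6.69% of higher genes the AP-1 motif, against 4.43%, 3.94% and 2.51% of all genes with a promoter on that strand.

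No paired analysis was possible because the table holds no values per library, and for the same reason leaving out each replicate was not run. The planned use of the second listing of the 4HC mean is left out, since each group enters through 1 column. The spread between libraries is therefore unknown for every value, and small differences cannot be told from it.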
